A study of Nothobranchius furzeri and Iconisemion striatum and Callopanchax occidentalis with 18 samples.

Results

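Rivulus cylindraceus, a killifish labelled non-annual, was represented by 1 small RNA library, made from whole embryos at somite stage. It was 1 of 18 libraries from 8 killifish species, and 1 of the 11 libraries of 6 species whose embryos were not in diapause, the reversible arrest in which annual killifish embryos outlast a dry season. The other 10 were the libraries it was compared with here. They came from Nothobranchius furzeri (strain MZM0410, labelled annual, 3 libraries) and from 4 species labelled non-annual. The latter were Aphyosemion striatum (4 libraries, with Iconisemion striatum given as organism), Austrofundulus leohoignei, Aplocheilus lineatus and Epiplatys dageti monroviae (1 library each). All 11 were of whole embryos that were forming somites, the blocks that give rise to vertebrae and trunk muscle, and no strain was given for any species but N. furzeri. How many embryos or clutches went into a library was not given in the sources used here. With 1 library there is no test of the species. The values describe that library, and intervals cover counting error only.

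MicroRNAs are short RNAs, cut as a 5p and a 3p arm from a hairpin precursor, that guide repression of messenger RNAs. In teleosts the miR-430 family is transcribed as the embryonic genome switches on and clears maternal messenger RNAs. miR-10 and miR-196 lie within the Hox gene clusters, which pattern the body axis, and the miR-17-92 clusters are known to promote proliferation. Many other families mark a tissue, such as miR-206 in skeletal muscle, miR-126 in endothelium or miR-203 in skin.

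The R. cylindraceus library held 371908 miRNA counts, the fewest of the 11 (the others held 524382 to 4177400). It was not short of reads, with 9834848 of 18 to 33 nt, but 3.78% of these were counted on miRNAs, against 1.43 to 33.1% elsewhere. Its library name carries the lane label L001, as do those of A. striatum replicate 4, A. leohoignei and E. dageti monroviae. Those of the other 7 libraries carry pool 3 and lane label L007. These labels are called lane 1 and pool 3 here. The names give no flow cell, so they do not show whether libraries of lane 1 were sequenced together. The 3 other libraries of lane 1 ranged from 1.43 to 28.6% counted and the 7 of pool 3 from 16.8 to 33.1%. A count of 0 in R. cylindraceus allows up to 3 counts, or 8.07 RPM (counts scaled to the library total). Species, clutch, exact stage within somite formation, library, lane label and depth cannot be told apart for R. cylindraceus. Values against lane 1 alone are therefore given for the called miRNAs that lost their call there and beside the leading results.

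The profile was dominated by miR-430a-3p. This arm alone made up 61.9% of all counts (95% Wilson interval 61.7 to 62.0%), against 1.89 to 45.7% (median 14.4%) in the other 10 libraries. miR-92a-3p, the main product of the miR-17-92 clusters, came second with 14.4%, inside the range of the others (1.60 to 22.97%). miR-10b-5p of the Hox clusters had rank 3 with 5.38%. It ranked first or second in each other library and took 18.04 to 69.2% there, so R. cylindraceus lay below all of them. The next ranks belonged to miR-430c-3p (3.65%), miR-21 (2.33%, known to be induced in growth and regeneration), miR-222a-3p (1.76%, of a pair known for control of the cell cycle), and miR-203a-3p (1.23%, a skin miRNA that restrains stem cell renewal). miR-26a-5p (0.914%), miR-205-5p (0.908%, of stratified epithelia) and miR-22a-3p (0.720%) completed the 10 most abundant. Of these 10, miR-430a-3p and miR-203a-3p had a larger share of counts than in any other library, and only miR-10b-5p had a smaller one.

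The 10 most abundant miRNAs together held 93.2% of the counts, within the range of the others (85.7 to 95.7%). Evenness was expressed as the effective number, the number of equally abundant miRNAs that would give the same Shannon entropy. It was 5.14 in R. cylindraceus and 3.90 to 12.1 elsewhere. Without the miR-430 family it rose to 11.9, near the top of the range of the others (3.27 to 12.1), where the other lane 1 libraries also stood (10.1 to 12.1). R. cylindraceus had at least 1 count for 208 of the 291 listed miRNAs. The others had 197 to 249, or 176 to 226 after thinning to the depth of R. cylindraceus.

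**Figure D1:**
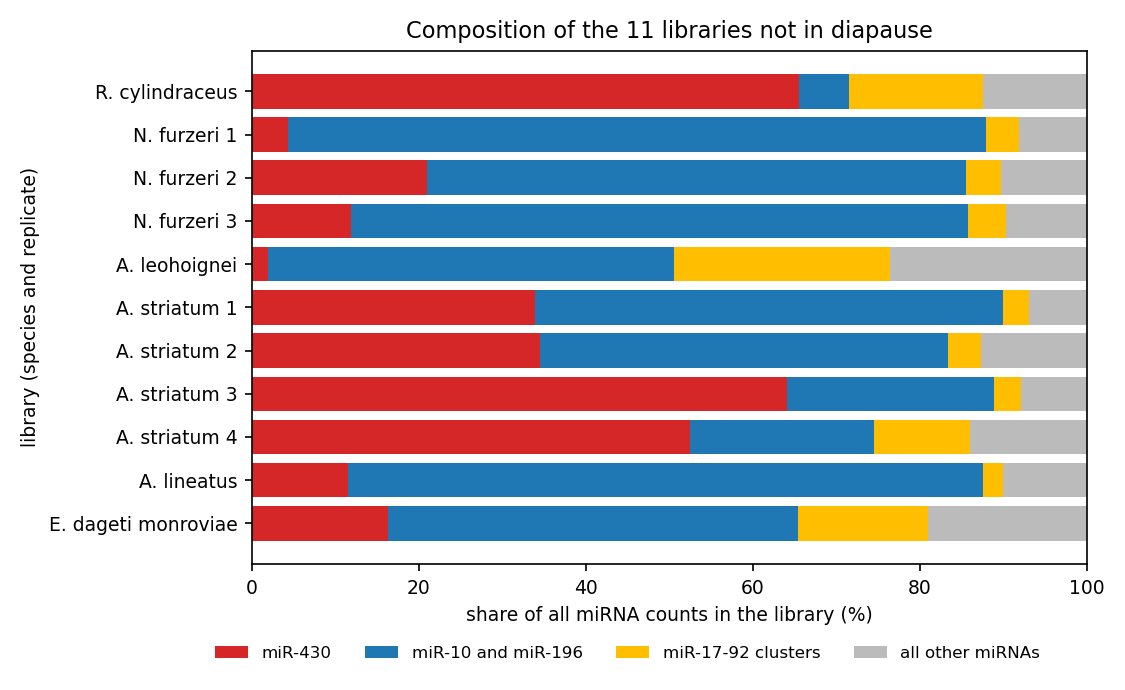
Share of all miRNA counts (%, x axis) taken by the miR-430 family, by miR-10 with miR-196, by the miR-17-92 clusters and by all other miRNAs, with 1 bar for each library not in diapause (y axis). R. cylindraceus had the largest miR-430 share (65.5%) and the smallest share of miR-10 with miR-196 (6.03%).

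The miR-430 family took 65.5% of counts in R. cylindraceus (95% Wilson interval 65.4 to 65.7%). Replicates 1 to 4 of A. striatum had 33.9%, 34.4%, 64.1% and 52.4%, and replicates 1 to 3 of N. furzeri 4.32%, 20.9% and 11.9%. E. dageti monroviae had 16.3%, A. lineatus 11.5% and A. leohoignei 1.91%. R. cylindraceus thus stood above all of them, but A. striatum replicate 3 came close, and the replicates of A. striatum alone spanned 33.9 to 64.1%. The difference between R. cylindraceus and the median of the other species was 53.2 percentage points, and 0.223 points once miR-430a-3p was left out.

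Most of the family's counts came from 1 member. miR-430a-3p had 230099 counts and miR-430c-3p, which shares its seed, 13581, a ratio of 16.9. That ratio varied from 0.257 in E. dageti monroviae to 84.7 in A. leohoignei, so R. cylindraceus was inside the range. As a share of counts miR-430c-3p stood at 3.65% in R. cylindraceus and at 0.0223 to 18.3% elsewhere. Of the 8 listed members, 3 had a count in R. cylindraceus, and the remaining one was miR-430i-3p with 9 counts (0 to 21 in the others). miR-430b-3p had 0, as in 7 of the others, and E. dageti monroviae had 399 counts of it. miR-430a-11-5p, miR-430a-13-5p and miR-430a-14-5p had 0 counts in R. cylindraceus and at most 1 elsewhere.

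The passenger arm of the dominant hairpin was missing from the counts. miR-430a-5p had 0 counts in R. cylindraceus, beside its 230099 counts of the 3p arm. It was also at 0 in A. leohoignei and in replicates 1 and 4 of A. striatum, and at 10 and 2 in replicates 2 and 3. N. furzeri had 707, 740 and 942 counts in replicates 1 to 3, E. dageti monroviae 1480 and A. lineatus 2879. The libraries thus formed a group with almost no 5p arm, R. cylindraceus and the 4 A. striatum libraries among them, and a group with 707 counts or more. Whether the sequence of this arm differs between the species was not tested.

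The Hox-cluster miRNAs were the counterpart of miR-430. Their share was 6.03% in R. cylindraceus (5.95 to 6.11%), against 22.1 to 83.6% (median 52.6%) in the others and 22.1 to 49.2% in lane 1. Because shares must sum to a fixed total, a high miR-430 share lowers every other one. Outside the miR-430 family the Hox share was 17.5% in R. cylindraceus and 46.5 to 87.3% elsewhere, so it stayed below every other library on that base. The balance of the leading members shows the same contrast in 1 number. R. cylindraceus had 11.5 counts of miR-430a-3p for each count of miR-10b-5p, and the other libraries had 0.0530 to 2.12.

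To compare single miRNAs, counts were scaled to CPM (counts scaled to a common library size) with TMM, which sets library sizes from the bulk of miRNAs rather than from the total. A dominant miRNA can therefore reach a CPM above that common size. Each R. cylindraceus value was set against the median of the 5 other species. A miRNA was called where it differed at least 4-fold and lay outside the range of all 10 other libraries. A mean of at least 50 CPM over the 11 libraries was required, which left out 188 of the 291 miRNAs. Of those compared, 4 (3.88%) were called higher and 18 (17.5%) lower in R. cylindraceus. A further 13 lay outside the range by less than 4-fold. The median log2 ratio of all miRNAs compared was -0.49, so a ratio near that value is the middle of the profile rather than a difference. miR-430a-3p, above all others as a share, was inside the range in CPM and was not called. It stood at 407437 CPM against 7187 to 815113 CPM (highest in A. striatum replicate 3), a log2 ratio of 1.37. Of the 3 miR-430 members compared, 0 were called, and their median log2 ratio was -1.29.

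The balance of higher and lower calls depends on the scaling. Of the 22 calls 18.2% were higher with TMM. With totals of the counts outside miR-430, the median log2 ratio became 1.24, and 25 miRNAs were called higher and 3 lower (89.3% higher). On that base 7 of the 22 remained, namely miR-31, miR-181a-3p, miR-15b-5p, miR-19c-3p, miR-10c-5p, miR-10d-5p and miR-199-5p. With plain library totals the median was 0.14 and 17 of the 22 remained. Each of the 22 kept its sign under all 24 alternatives. A called miRNA lies outside the range of all 10 other libraries, so only another scaling or centring could have changed its sign. Against the 3 other lane 1 libraries, 14 of the 22 remained. Some alternatives could not end a call. The 2-fold limit, the limit of 10 CPM and no filter kept all 22 by construction. Leaving out 1 library could end a call only through the 4-fold limit, since it cannot widen the range. With that in mind, calls of miR-10c-5p, miR-10d-5p and miR-199-5p held in 24 of 24. Those of miR-31 and miR-181a-3p held in 23, the exception being a limit of 50 CPM over the 10 other libraries, which neither passed and which left 2 higher and 18 lower calls.

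**Figure D2:**
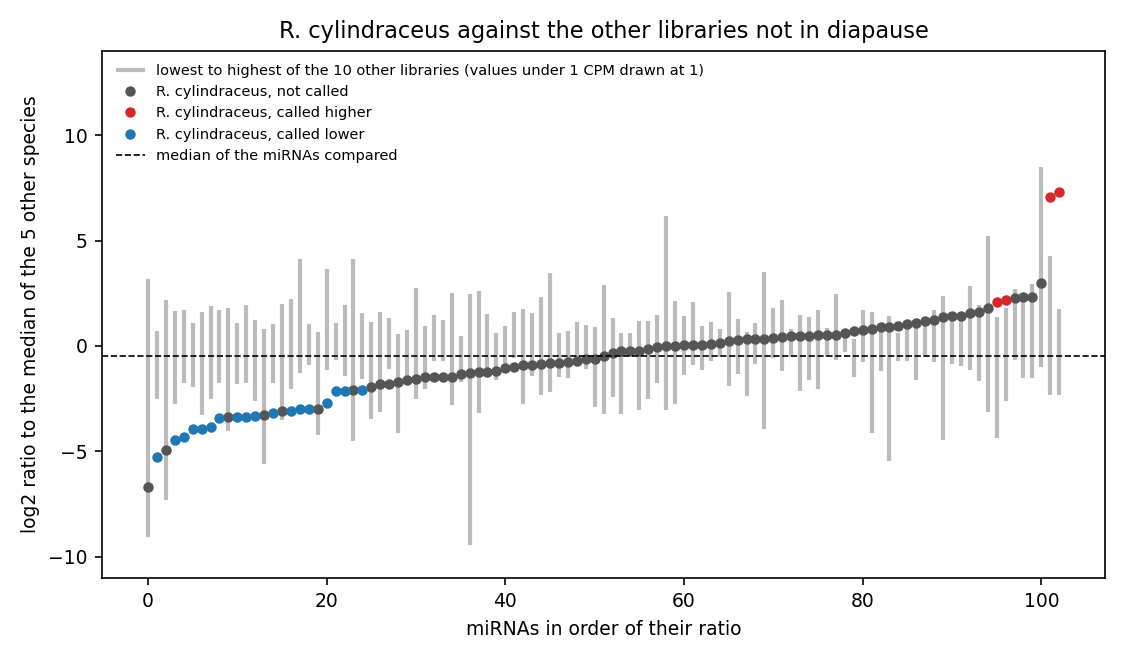
Log2 ratio of R. cylindraceus to the median of the 5 other species (y axis) for the miRNAs compared, in order of the ratio (x axis), with grey bars from the lowest to the highest of the 10 other libraries. The 4 red points were called higher and the 18 blue points lower, and the dashed line marks the median of -0.49.

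Among the Hox-cluster miRNAs, 4 of the 6 members compared were called lower, against 17.5% of all miRNAs, and their median log2 ratio was -3.25, against -0.49 overall. miR-10c-5p took 0.0522% of counts in R. cylindraceus and stood at 344 CPM. The others ranged from 2329 CPM (N. furzeri replicate 2) to 22094 CPM (A. striatum replicate 2) with a median of 11461 CPM. It lay below all of them, with a log2 ratio of -5.28 (95% Poisson interval -5.49 to -5.08) and of -5.04 against lane 1.

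miR-10d-5p stood at 3290 CPM against 19570 to 212837 CPM, a log2 ratio of -4.33 (-4.40 to -4.27). miR-10b-5p stood at 35457 CPM against 111202 to 1251797 CPM, a log2 ratio of -3.43 (-3.45 to -3.41). miR-10a-5p, with 32 counts, stood at 56.7 CPM against 115 to 2256 CPM, a log2 ratio of -3.07 (-3.62 to -2.58). All of these miR-10 guide strands lay below every other library, but against lane 1 alone miR-10b-5p (-1.94) and miR-10a-5p (-1.53) missed the 4-fold limit. Without A. leohoignei or E. dageti monroviae the ratios of miR-10b-5p, miR-10d-5p and miR-10a-5p moved to -4.16, -5.02 and -3.74. The members differ by few bases, so reads may have been shared among them in counting.

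The Hox miRNAs did not move as a block. miR-196a-5p, the abundant member of miR-196 and known to repress Hox messenger RNAs, had 344 CPM in R. cylindraceus and 259 to 1198 CPM in the others. Its log2 ratio of -1.32 (-0.27 with library totals) lay within the range. In R. cylindraceus there were 103.2 counts of miR-10b-5p for each of miR-196a-5p, fewer than in any other library (193 to 1282). The ratio of miR-10b-5p to miR-10d-5p was 10.8, above every other library (3.57 to 8.40). miR-10b-2-3p, the passenger arm of a second miR-10b hairpin, stood at 203.6 CPM, inside the range (6.64 to 351 CPM), with a log2 ratio of 0.82. There were 174 counts of miR-10b-5p for each of this arm, against 455 to 34421 elsewhere. miR-10b-3p had 1 count, against 8 to 120 in the others, and a mean under 50 CPM kept it out of the comparison. The remaining miR-10 and miR-196 members, namely miR-10c-3p, miR-10d-3p, miR-196a-3p, miR-196b, miR-196c and miR-196d, had 0 or 1 count in R. cylindraceus and at most 8 in any other library.

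miR-31 had the highest log2 ratio of the miRNAs compared. It is known in vertebrates from epithelia, muscle progenitors and lymphatic vessels. R. cylindraceus had 445 counts (788 CPM). N. furzeri replicates 1 to 3 had 7, 5 and 8 counts, A. striatum replicates 1 to 4 had 1, 39, 5 and 18, A. leohoignei had 15, A. lineatus 3 and E. dageti monroviae 4. miR-31 passed the 50 CPM limit only through R. cylindraceus, since its mean over the 10 others was 6.74 CPM, so its place among the miRNAs compared rests on the value described. No other library exceeded 17.1 CPM, and the one nearest was 46.0-fold lower. The log2 ratio was 7.29 (95% Poisson interval 7.16 to 7.43), and 7.23 against lane 1. It lay between 7.23 and 8.57 under all alternatives, and miR-31 ranked 24th in R. cylindraceus but no higher than 134th in any other library.

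miR-181a-3p, the usual passenger arm of a hairpin known from lymphocytes and the nervous system, had the next highest ratio. It too passed the 50 CPM limit only through R. cylindraceus (mean of the 10 others 15.1 CPM). R. cylindraceus had 377 counts (668 CPM). A. leohoignei had 278 counts (97.1 CPM) and E. dageti monroviae 49 (43.3 CPM), while the other 8 libraries had 0 to 4 counts. R. cylindraceus was 6.87-fold above A. leohoignei. The libraries with the arm all carried the lane 1 label, although A. striatum replicate 4 of the same label had 4 counts. The log2 ratio was 7.06 (6.91 to 7.20) against all species and 3.95 against lane 1, and it fell to 4.85 without A. lineatus. The guide arm miR-181a-5p went the other way, at 2550 CPM against 4365 to 19816 CPM, a log2 ratio of -1.48, short of the 4-fold limit.

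miR-15b-5p, of a family known to restrain the cell cycle and survival, stood at 818 CPM (745 to 896 CPM by counting error), against 29.4 to 627 CPM elsewhere. miR-19c-3p of the miR-17-92 clusters had 166 counts (294 CPM), against 3.35 to 177 CPM. Both lay above all other libraries but close to the nearest, A. leohoignei for miR-15b-5p (627 CPM) and A. striatum replicate 4 for miR-19c-3p (177 CPM). The log2 ratio of miR-15b-5p was 2.16 (2.03 to 2.30) and that of miR-19c-3p 2.10 (1.87 to 2.32). Against lane 1 they fell short of the limit, at 1.42 and 0.76, and without A. lineatus neither was called (1.75 and 1.93). miR-19c-3p also missed it without A. striatum replicate 1, 2 or 3 (1.91, 1.87 and 1.82), and moved up to 2.80 without A. leohoignei or E. dageti monroviae and to 3.17 without A. striatum replicate 4. Within their families both were prominent. R. cylindraceus had 14.4 counts of miR-15b-5p for each of miR-15a-5p (0.473 to 11.8 elsewhere) and 0.266 counts of miR-19c-3p for each of miR-19b-3p (0.0104 to 0.181 elsewhere).

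**Figure D3:**
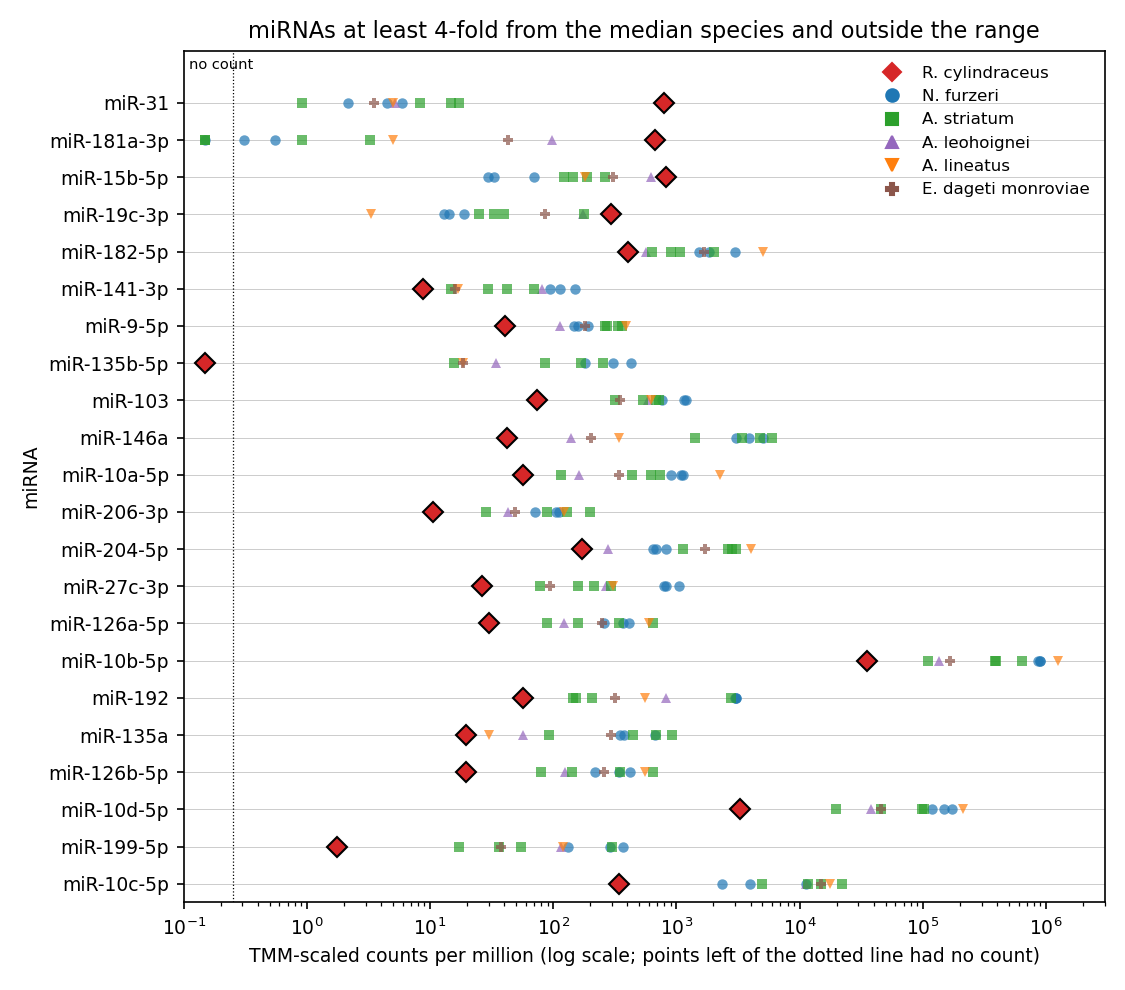
TMM-scaled CPM (x axis, log scale) of the 22 called miRNAs (y axis) in each of the 11 libraries, with symbols by species and R. cylindraceus as red diamonds. miR-31 (788 CPM) and miR-181a-3p (668 CPM) lie far to the right of the other libraries, while miR-15b-5p and miR-19c-3p lie close to the nearest of them.

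The blood and endothelium miRNAs that were compared were low. Of these 5 members, 3 were called lower and all 5 had negative log2 ratios, with a median of -3.36. Over all miRNAs compared, 17.5% were called lower and the median was -0.49. With totals outside miR-430, the 3 calls were lost. Their share of counts was 0.0914% (0.0822 to 0.102%), below every other library (0.127 to 0.639%), although outside miR-430 (0.265%) it lay within the range (0.144 to 0.975%). miR-126, the endothelial miRNA that supports vessel integrity, is listed as miR-126a-5p and miR-126b-5p. R. cylindraceus had 17 and 11 counts of them, or 30.1 and 19.5 CPM, and no other library had less than 79.4 CPM of either. Their log2 ratios were -3.36 and -3.96. The counts of this pair were nearly equal in each of the other libraries (ratio 0.949 to 1.17), so they are uncertain as separate measurements and may stand for 1 arm. miR-126b-3p, the opposite arm, had 83 counts (147 CPM) and lay inside the range (28.1 to 366 CPM). Its log2 ratio of -0.13 was above the median of -0.49, so this member was not low.

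miR-146a, induced by inflammatory signalling, had 24 counts (42.5 CPM) against 138.4 to 5990 CPM, a log2 ratio of -2.999. That ratio moved to -5.64 without A. leohoignei or E. dageti monroviae and to -5.59 without A. lineatus. miR-144-5p, of an erythroid hairpin, had 2 counts against a top value of 718 CPM, but it reached 0 in another library as well and was not called. Other blood miRNAs were scarce everywhere. miR-451, which marks erythrocytes, had 1 count in R. cylindraceus and at most 13.6 CPM elsewhere. The member furthest above the reference was miR-150, known from mature lymphocytes. It had 162 counts (287 CPM) in R. cylindraceus and 0 to 35 counts (at most 58.6 CPM) in the others. Its mean of 34.7 CPM was under the limit, so it entered only the alternatives of at least 10 CPM and of no filter, with a log2 ratio of 6.08. These members were chosen for description after their values were seen.

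Several miRNAs of connective tissue, muscle, brain and gut were also among the lower calls. miR-199-5p, of mesenchyme and cartilage, had 1 count in R. cylindraceus and 21 to 1187 in the others. As counted, it was 65.5 times lower than the median species, with a counting interval of 11.8 to 2588 times. All 4 members of the cartilage and mesenchyme list that were compared had negative ratios (median -2.74), but only miR-199-5p was called (17.5% of all miRNAs were called lower). miR-199-3p (0 counts) and miR-199-3-3p (2 counts) were not called. The lowest other library had 0 and 3.31 CPM of them, under the R. cylindraceus floor of 5.31 CPM. Their references were higher, at 22.96 and 54.8 CPM. miR-140-3p of cartilage had 149 counts (264 CPM), inside the range of 189 to 826 CPM.

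miR-206-3p of skeletal muscle had 6 counts (10.6 CPM) against 28.7 to 200 CPM, a log2 ratio of -3.17 (-4.62 to -2.05). The other measured muscle miRNA, miR-1, had 8 counts (14.2 CPM) beside a reference of 14.3 CPM, a log2 ratio of -0.02. The muscle miRNAs therefore disagreed, and both rest on few counts. miR-133a-3p had 10 counts and miR-499-5p 3.

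miR-9-5p, of neural progenitors, had 23 counts (40.7 CPM) against 114 to 387 CPM, a log2 ratio of -2.14. The call was lost with DESeq2 size factors and with centred ratios. miR-128-3p, a neuronal miRNA and the most abundant of the neural list, had 390 counts (691 CPM) and lay inside the range of 162 to 1272 CPM. 1 of the 3 neural members compared was called lower, against 17.5% of all miRNAs. The scarce miR-124-3p, a marker of differentiated neurons, had 3 counts, and no other library exceeded 18.5 CPM. The opposite arm, miR-124-5p, had 17 counts (30.1 CPM) and lay above all others (at most 22.96 CPM), with a mean under the 50 CPM limit and a log2 ratio of 2.58 where no filter was used.

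miR-204-5p, of lens, retinal pigment epithelium and choroid plexus, had 97 counts (172 CPM) against 278 to 4014 CPM, a log2 ratio of -3.30 (-3.61 to -3.02). miR-184, also of the lens and cornea, lay inside the range at 1038 CPM (407 to 16254 CPM elsewhere). miR-182-5p of the sensory cluster, known from hair cells and photoreceptors, had 402 CPM against 566 to 5013 CPM, and its log2 ratio of -2.07 was the smallest of the calls lower and missed the limit against lane 1 (-0.67) and without A. lineatus (-1.82). It was called in 15 of 24 alternatives, and not with library totals, DESeq2 size factors, the other non-annual species alone or centred ratios. Its partner miR-183-5p lay inside the range, at 74.4 CPM (44.7 to 207 CPM elsewhere).

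miR-192 of liver and gut had 32 counts (56.7 CPM) against 143.5 to 3053 CPM, a log2 ratio of -3.86 (-4.40 to -3.36). miR-375, of pancreatic islets and pituitary, was within the range at 74.4 CPM (26.5 to 641 CPM elsewhere), with a log2 ratio of -1.95. miR-122, the hallmark of hepatocytes, had 3 counts, so neither R. cylindraceus nor the others (at most 41.8 CPM) had much of it. Fewer cells of a type and less of a miRNA per cell cannot be told apart in whole embryos.

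The remaining lower calls belong to no single tissue. miR-135a had 11 counts (19.5 CPM) against 30.1 to 915 CPM, a log2 ratio of -3.93. miR-135b-5p, of the same family, had 0 counts in R. cylindraceus and 11 to 1386 in the other libraries. Set at the floor of 3 counts for the library, it was at least 6.51-fold lower than the median species. With the floor, its log2 ratio was -2.70, and between -3.96 and -3.82 without A. leohoignei, A. lineatus or E. dageti monroviae. Against lane 1 it was -1.80, short of the limit. miR-27c-3p, of clusters known from vessel growth, had 15 counts (26.6 CPM) against 78.7 to 1053 CPM, a log2 ratio of -3.35. Against lane 1 it was -1.82, short of the limit. The more abundant miR-27b-3p was below all others as well, at 310 CPM against 504 to 2663 CPM, but its log2 ratio of -1.79 put it just outside the limit.

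miR-103 and miR-107a-3p, sister miRNAs known from metabolic control, went in opposite directions. miR-103 had 42 counts (74.4 CPM), below all others (319 to 1206 CPM, log2 ratio -2.98). miR-107a-3p had 275 counts (487 CPM), above all others (110 to 384 CPM, log2 ratio 0.69). The 2 sequences are close, so how reads were divided between them in counting is uncertain, and together their share of 0.0852% lay inside the range (0.0404 to 0.252%). The last lower call was miR-141-3p of the epithelial miR-200 family, with 5 counts (8.85 CPM) against 14.8 to 151 CPM and a log2 ratio of -2.14. Against lane 1 it was -0.84. It was called in 15 of 24 alternatives, and not with library totals, DESeq2 size factors, the other non-annual species alone or centred ratios. It also missed the limit without A. leohoignei (-1.66) or A. striatum replicate 3 (-1.71), and moved to -2.76 without A. lineatus or E. dageti monroviae. Just outside the limit stood miR-27b-3p, miR-181a-5p and miR-456 (-1.79, -1.48 and -1.47), and just inside miR-182-5p, miR-19c-3p and miR-141-3p.

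The miR-17-92 clusters exceeded the other libraries in share only once miR-430 was set aside. They held 16% of all counts in R. cylindraceus (15.9 to 16.1%), within the range of the others (2.40 to 25.8%) and of lane 1 (11.4 to 25.8%). Of the counts outside miR-430 they held 46.4%, above every other library (2.71 to 26.3%). On that base the Hox list held 17.5% in R. cylindraceus and 46.5 to 87.3% elsewhere. A low Hox share raises that of every other list, and shares with both families left out are not given here. Most counts of the miR-17-92 list came from miR-92a, which held 14.8% of all counts in R. cylindraceus. miR-92a-3p stood at 94759 CPM, just above the highest other library (A. leohoignei, 87515 CPM). Of the 13 members compared, 10 had positive log2 ratios (median 0.46, and 0.18 against lane 1), but 1 was called, miR-19c-3p, against 3.88% of all miRNAs called higher. That share includes miR-31 and miR-181a-3p, which passed the 50 CPM limit only through R. cylindraceus. With the limit set over the 10 other libraries, 2 miRNAs were called higher, miR-19c-3p among them. A single call is too few to set this list apart from either rate. miR-25-3p (3224 CPM) lay at the lower end of the range, with a log2 ratio of -1.06. miR-92b-3p went furthest down, to -3.07, and was within the range of the others (85.4 to 3901 CPM).

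Of 26 lists of families and tissues, 1 (miR-430) had a larger share of all counts than in any other library. The Hox, blood and endothelium, and miR-23/27/24 lists had a smaller one, and the other 22 lay within the range. Outside miR-430 only the Hox list stayed below the range, and 5 lists stood above it: the miR-17-92 clusters, epithelium, miR-30, miR-15 with miR-16, and miR-221 with miR-222. The low Hox share on that base (17.5%, against 46.5 to 87.3% elsewhere) raises the share of every other list. The places of these 5 lists are therefore not separate from it. The epithelial list held 7.30% on that base (0.942 to 4.06% elsewhere). Of its 9 members compared, 3 lay above all other libraries (miR-203a-5p, miR-203b-5p and miR-429a) and 2 below (miR-141-3p and miR-200a-3p). Among all miRNAs compared (291 listed less the 188 left out), 12 lay above all other libraries and 23 below. miR-205-5p, at 5978 CPM, lay inside the range.

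The miR-30 list held 3.08% outside miR-430 (0.226 to 1.797% elsewhere). Its leading member was miR-30c-5p with 2548 counts (4512 CPM), 4.96-fold above the median species in CPM, yet inside the range because A. leohoignei had 4707 CPM. miR-30e-3p was within the range (565 CPM, 292 to 11155 CPM elsewhere). The miR-15/16 list held 1.29% (0.115 to 0.563% elsewhere), and all 4 members compared had positive ratios. The abundant miR-16b (1606 CPM) and miR-16a (453 CPM) lay inside the range. The list of miR-221 and miR-222 held 5.71% (0.324 to 5.05% elsewhere), led by miR-222a-3p (11564 CPM, just above the highest other value of 11326 CPM).

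For the lists not yet described, most leading members lay inside the range of the other libraries. Of the miRNAs named by the rule in these lists, miR-181a-5p (2550 CPM, given above) lay below it. miR-29b had 0 counts in R. cylindraceus, where the floor set by depth was 5.31 CPM. The other libraries had 1.67 to 22.4 CPM of miR-29b, so depth leaves its place undecided. It was not among the miRNAs compared. let-7, known to rise as cells differentiate, held 0.0745% of counts (0.0158 to 0.227% elsewhere). let-7a stood at 97.4 CPM and let-7g at 198 CPM, and the ratio of let-7a to let-7g, 0.491, was below every other library (0.736 to 6.56). miR-462 (273 CPM) and miR-731 (143 CPM), which fish induce together in low oxygen, had log2 ratios of -0.83 and -0.49. miR-29a had 29 counts (51.4 CPM, 1.67 to 555 CPM elsewhere). miR-101a (86.8 CPM), miR-101b (26.6 CPM), miR-100-5p (285 CPM), miR-125a (88.5 CPM), miR-130c-3p (570 CPM), miR-130c-5p (747 CPM), miR-148 (158 CPM), miR-152 (10.6 CPM), miR-26b (606 CPM) and miR-181b-5p (636 CPM) were also inside it.

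Arm use was compared for hairpins with both arms listed. Of 75 such hairpins, 37 had at least 20 counts over both arms in each of the 11 libraries. In 10 of them (27%) the log2 ratio of 5p to 3p counts in R. cylindraceus lay outside the range of the others by at least 2-fold, 2 towards the 5p arm and 8 towards the 3p arm. In 7 of the 10, namely miR-9, miR-10c, miR-10d, miR-17a, miR-25, miR-182 and miR-204, an arm had 3 counts or fewer, so that depth limits the ratio there. Counts under 3 were set to 3. miR-10c, miR-182 and miR-204 had 0 counts of the 3p arm in R. cylindraceus, and miR-25 had 0 of the 5p arm. The direction in these 7 can therefore come from the floor and fewer counts of the main arm, and shows no shift of arm use. In the remaining 3, the counting interval of the ratio lay outside the range as well.

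These 3 were miR-181a, miR-221 and miR-126b. For miR-181a there were 1440 counts of 5p and 377 of 3p, a log2 ratio of 1.93 (95% exact interval 1.77 to 2.10), against 6.14 (A. leohoignei) to 14.4 elsewhere. For miR-221 there were 95 counts of 5p and 242 of 3p, a log2 ratio of -1.35 (-1.71 to -1.001), against -8.23 to -6.14 elsewhere. For both, R. cylindraceus carried far more of the listed arm that was minor in the other libraries. miR-181a-2-3p, the 3p arm of a second miR-181a hairpin, had 264 counts in R. cylindraceus. Its ratio to miR-181a-5p, 0.183, lay within the range of the others (0.0127 to 0.489). No separate 5p arm is listed for that hairpin, so counts of miR-181a-5p may come from both. miR-221-5p had 0 to 17 counts in each other library and 168 CPM in R. cylindraceus, while miR-221-3p (428 CPM) was inside the range of 279 to 694 CPM. For miR-126b the arms stood at 11 and 83 counts, a log2 ratio of -2.92 (-3.97 to -2.002), against -1.56 to 1.87 elsewhere. Its 5p count is uncertain as a measurement separate from miR-126a-5p. The hairpin miR-126a, with 17 and 4 counts, lay inside the range, at 2.09 against -1.14 to 6.53 elsewhere. miR-222a, the sister hairpin of miR-221, had a log2 ratio of -3.84, outside the range of -3.25 to 0.72 by less than 2-fold. miR-222a-5p itself stood at 809 CPM, inside the range of 324 to 8724 CPM.

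**Figure D4:**
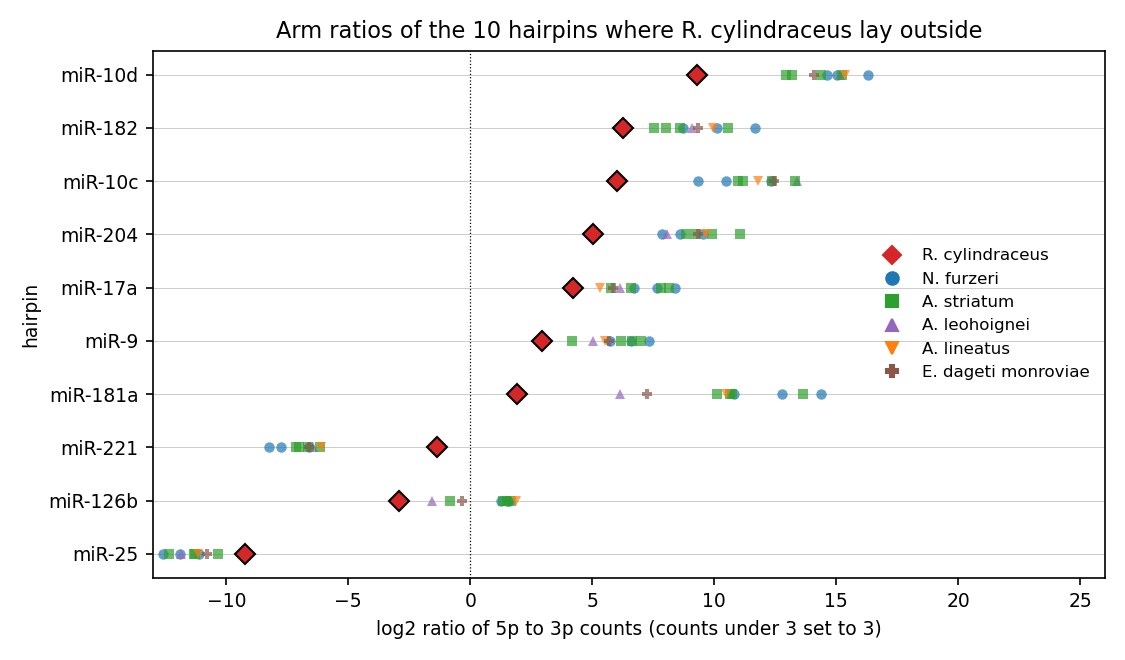
Log2 ratio of 5p to 3p counts (x axis, counts under 3 set to 3) in each of the 11 libraries for the 10 hairpins (y axis) where R. cylindraceus, drawn as red diamonds, lay outside the others by at least 2-fold. miR-181a (1.93) and miR-221 (-1.35) show the widest gaps that rest on more than 3 counts in both arms.

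Of the other libraries, A. striatum replicate 4 had the profile most like that of R. cylindraceus. Over the miRNAs compared, Spearman's rho with it was 0.795, followed by E. dageti monroviae (0.748) and A. striatum replicate 3 (0.682). The lowest values were with N. furzeri replicate 1 (0.543) and A. lineatus (0.540). The top pair shares the lane 1 label with R. cylindraceus, but A. leohoignei of that label had 0.631, below replicates 1 and 3 of A. striatum in pool 3 (0.648 and 0.682). Over these miRNAs, no value of R. cylindraceus reached those between replicates of A. striatum (0.846 to 0.952) or N. furzeri (0.937 to 0.976). E. dageti monroviae with A. striatum replicate 4, of another species, reached 0.847. The mean rho of R. cylindraceus to the 10 others was 0.641, lower than that of each other library except A. leohoignei (0.588). Without miR-430, A. striatum replicate 4 (0.776) and E. dageti monroviae (0.760) still came first. Over all 291 listed miRNAs, A. striatum replicate 4 stayed first (0.851), but E. dageti monroviae (0.812) came behind the 4 A. striatum libraries, A. lineatus (0.815) and N. furzeri replicate 2 (0.813). These correlations run across miRNAs, which are not independent replicates, and share the libraries' depth.

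**Figure D5:**
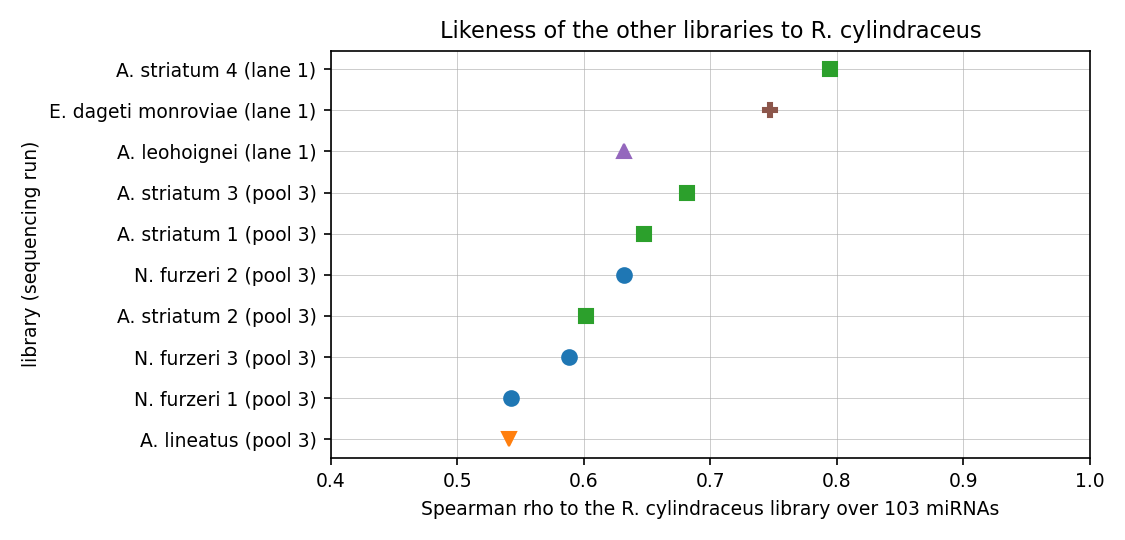
Spearman's rho between R. cylindraceus and each other library not in diapause (x axis) over the miRNAs compared, with libraries grouped by the lane or pool label in their names (y axis). A. striatum replicate 4 (0.795) and E. dageti monroviae (0.748), both of lane 1, had the highest values.

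Absence from the library was limited by its depth. R. cylindraceus had 0 counts for 83 of the 291 miRNAs, and 29 of these had at least 10 counts in some other library. Only miR-135b-5p had 0 counts in R. cylindraceus with at least 10 counts in each of the 10 others. No miRNA was counted in R. cylindraceus alone.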

How the data were processed

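Per the labels' protocols, Illumina's TruSeq kit for small RNA was used on whole embryos. Per the submitters' processing notes, the tools included Bowtie 1.1.2 and 1.0.0, bcl2fastq 1.8.3 and CASAVA 1.8.2. Per the file headers, the reads were trimmed, kept at 18 to 33 nt and aligned. The authors deposited raw counts of 291 mature miRNAs per library. Their deposited RPM values were count over library total (tolerance 0.001, met by 100% of values), and the counts were analysed. The deposited read totals and percent columns served only for depth. The total line and 2 columns matching no sample were left out. For the reference sequences, mismatches and multiple matches, details were not given in the sources used here. All species were counted against the same list, and whether a species' sequence differs from it was not tested.

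In R 4.3.3, TMM factors came from edgeR 4.0.16 and alternative size factors from DESeq2 1.42.0. All else was computed in Python 3.11.15 (numpy 2.4.6, pandas 2.3.3, scipy 1.17.1). The reference was the median of 5 species, each the mean of its libraries. Calls needed a 4-fold ratio, a value outside the range of all 10 other libraries and a mean of at least 50 CPM. Counts under 3 were set to 3. Intervals (95%) were exact Poisson for counts, Wilson for shares and exact binomial for arm ratios, and they cover counting error only. No p-value was computed. The procedure was run on simulated counts in which the most abundant miRNAs were left unchanged and all libraries otherwise had the same mean composition. That check does not cover a library in which miR-430 and miR-10 differ as here. Depth was 371908 to 4177400 counts per library.

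Named were the 10 most abundant miRNAs, the 12 highest and 12 lowest calls, all miR-430, miR-10 and miR-196 members, the 2 most abundant members of each of 27 lists, and hairpins outside the arm range. The 6 further lower calls were added so that each call is accounted for. Ratios between family members, scarce tissue markers and miRNAs outside the range by less than 4-fold were chosen after their values were seen. 1 list, germ line and early embryo, nearly repeats miR-430 (65.5% of counts in both) and was not counted among the 26. The members and lists were chosen with earlier results of these data known. Alternatives were other scalings, filters, references, call limits and floors, lane 1 only and each library left out. Centring on the median, the limit of 50 CPM over the 10 other libraries and the arm ratio's counting interval were added after the data were examined.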

Additional observations from a re-analysis of the deposited data

Results flagged for a closer look

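Among the 4 A. striatum libraries, the highest value stood far from the other 3 for 8 of 48 values checked, by Dixon's 95% critical value. By chance about 1 in 20 would do so if the values were independent and normally distributed. The values checked overlap, as miR-192 does with its list, so 8 of 48 does not measure an excess over that rate. For R. cylindraceus, with 1 library, no such check is possible. The flagged values set the upper end of the range it was compared with or the mean of A. striatum. In A. striatum replicate 4, the library of lane 1, these were the share of the miR-17-92 clusters (11.4%), let-7 (0.227%) and miR-29 (0.00772%), and miR-19c-3p at 177 CPM. In A. striatum replicate 2 they were the share of the liver, gut and pancreas list (0.279%) and of the blood and endothelium list (0.639%), miR-199-5p at 298 CPM and miR-192 at 2797 CPM. R. cylindraceus lay below replicates 1 to 4 for miR-199-5p and miR-192.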

How the results depend on the processing

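The count of higher calls was 4, and 25 with totals outside miR-430, 2 with totals outside miR-430, miR-10 and miR-196, 9 with at least 10 CPM, 14 with no filter, 2 with at least 50 CPM over the 10 other libraries (chosen after seeing the data), 2 at 8-fold, 9 at 2-fold and 2 to 6 with 1 library left out (2 without A. lineatus). Lower calls numbered 18, and 3 with totals outside miR-430. The miR-430 share stood 53.2 points above the median species, 0.223 without miR-430a-3p and 49.2 to 54.0 with 1 library left out. The Hox share stood at -43.1 points, -51.3 outside miR-430, -11.3 without miR-10b-5p and -55.6 to -42.9 with 1 library left out. Hairpins outside by 2-fold numbered 10, and 3 where the counting interval had to lie outside too, an alternative chosen after seeing the data. The median rho was 0.632, and 0.814 over all listed miRNAs. Apart from construction (filter, limit, members, base), the cause of these changes was not tested. All 22 calls kept their sign, which only another scaling or centring could have changed. No paired analysis was possible because R. cylindraceus has 1 library and replicate numbers follow sample order. Depth limits R. cylindraceus most: 10 of the miRNAs compared had under 10 counts there.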

Other observations

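The miRNAs called higher were also looked up in the 7 libraries of embryos in diapause, which belong to no comparison above. In these, miR-31 had 1 to 18 counts, at most 15.5 RPM (N. furzeri in diapause, replicate 2), beside 445 counts and 1197 RPM in R. cylindraceus, so that none of the other 17 libraries of the series came near it. miR-181a-3p had 329 counts (355 RPM) in Nematolebias papilliferus, 0 in Callopanchax occidentalis and 0 to 6 in the 5 N. furzeri libraries. In RPM the order of the libraries with more than 6 counts of this arm was R. cylindraceus (1014), N. papilliferus (355), A. leohoignei (255) and E. dageti monroviae (93.4). Each of these libraries carries the lane 1 label. So do C. occidentalis and N. furzeri in diapause replicates 1 and 2, which had 0 counts of it. miR-15b-5p reached 377 RPM in N. papilliferus and 46.6 to 282 RPM in N. furzeri in diapause, against 1242 RPM in R. cylindraceus. In RPM A. leohoignei exceeded R. cylindraceus for miR-15b-5p (1645 RPM) and miR-19c-3p (455 against 446 RPM).

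Below the 50 CPM limit, the largest ratio after miR-150 was that of miR-221-5p (log2 ratio 5.07). Among miRNAs with a still lower mean, miR-129-3p of the nervous system had 26 counts (46.0 CPM, 0 to 29 counts and at most 23.8 CPM elsewhere) and miR-737-3p had 18 counts (31.9 CPM, at most 2.79 CPM elsewhere). miR-132-3p, a neuronal miRNA, had 25 counts (44.3 CPM, at most 30.1 CPM elsewhere). These were chosen after their values were seen.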
